A study of Arabidopsis thaliana with 6 samples.

Results

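The genes described here lie in chromosome regions that are present in the normal 2 copies in every plant of the study, yet had a higher signal in tertiary trisomy 2 (AAa) than in wild type (WT) while staying close to WT in trisomy 2 (AAA). There were 122 such genes among 5469 retained non-triplicated genes (2.23%). Candidates were genes of Chr.1, Chr.4, Chr.5 and the part of Chr.3 beyond AT3G20040 with a probe set for a single locus, using the brightest probe set of a gene. Signals were taken to log2 after a floor of 1, and each array was centred on its median over the retained genes, those with a geometric mean signal over the 6 arrays of at least 77.7. A gene belonged to the set when its AAa mean exceeded its WT mean by at least 1.5-fold (0.58496 on the log2 scale, applied with 3 decimals), both AAa arrays lay above both WT arrays, and its AAA mean lay within 0.3 of the WT mean. By value alone 124 genes met these limits, and 2 of them were among 4 genes left out of the set by name. The members were thus chosen by their signals on these 6 arrays, and their differences from WT, and between AAa and AAA, are given as a description. Counts of members that passed a linear model are given below. The choice of the genes fixes much of these counts, and nothing is read from them.

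Affymetrix ATH1 arrays were hybridized with RNA of 3 karyotypes of Arabidopsis in the Col-0 background, 2 arrays each. AAa plants carried the aur2-1 allele, a T-DNA insertion in the AURORA2 gene, on an extra chromosome that joins Chr.2 up to AUR2 to Chr.3 up to the start of AT3G20040. AAA plants had a complete extra Chr.2 and unmutated AUR2, and WT plants were diploid Col-0. Both trisomics were recognized by their round leaves and then genotyped. RNA came from rosette leaves of 26-day-old plants kept at 22 °C with 16 h light and 8 h dark, pooled from 21 to 35 plants. AAa thus differed from AAA in the added Chr.3 segment, in having 2 rather than 3 copies of distal Chr.2, and in carrying aur2-1, and the parts of these in any difference cannot be told apart. The sources used here do not say whether both arrays of a karyotype stem from independent plantings, so p-values measure only the spread between these arrays.

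Aneuploidy alters the dosage of the genes on the unbalanced chromosome, and it is also known to alter transcripts of genes elsewhere, whose own copy number is normal. Such trans effects are thought to run through dosage-sensitive regulators, and stress-responsive genes are often among those that move in plants and yeast. In leaves, the families met below act in protein turnover through ubiquitin ligases and secreted subtilases, in redox control through glutaredoxins and in the conjugation or oxidation of small molecules. As the RNA came from whole leaves, more RNA per cell and more cells of a type cannot be told apart in any value below.

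Correlations of log2 signals across genes were at least 0.983 between arrays of a karyotype and at most 0.972 between karyotypes. The leaf marker that could be read, RCA (rubisco activase), lies on distal Chr.2, with 3 copies in AAA and 2 in AAa and WT, and had signals of 28104 and 32034 in AAa, 39283 and 48047 in AAA, and 46456 and 42830 in WT. The root marker PYK10, which lies on the Chr.3 segment added in AAa, had 46.4 and 28.5 in AAa, 9.42 and 23.8 in AAA, and 2.87 and 3.14 in WT, all below the limit for retention. A usable probe set was found for 1 of 6 leaf, 1 of 3 root, 2 of 3 pollen and 1 of 3 guard cell markers, and for 0 of 5 floral and 0 of 3 seed markers. The summed pollen markers ran from 180.0 to 180.5 in AAa, 158 to 196 in AAA and 204 to 213 in WT, and the guard cell marker FAMA from 184 to 209 in AAa, 172 to 190 in AAA and 212 to 230.0 in WT. Of the summed pollen markers, VEX1 was below the limit for retention on all arrays, at 41.2 to 67.4. The log2 ratio of 3′ to 5′ control probes for ubiquitin, a sign of RNA integrity, averaged 1.24 in AAa, 1.62 in AAA and 1.75 in WT. For actin it averaged 3.19 in AAa, 3.52 in AAA and 3.71 in WT. For GAPDH it averaged 0.27 in AAa, 0.29 in AAA and 0.06 in WT. The ratios of ubiquitin and actin were thus lowest in AAa and that of GAPDH was lowest in WT, and the part of RNA quality in the values below was not tested.

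Over the 122 genes the AAa mean exceeded the WT mean by a median of 0.73 on the log2 scale (1.66-fold), with quartiles of 0.65 and 0.86 and a range of 0.59 to 1.69 (1.5-fold to 3.22-fold). Most differences were modest, since 55 genes lay below 0.7 and 21 reached 2-fold. Relative to the WT mean of each gene, the set had medians of 0.75 and 0.74 in AAa, 0.08 and 0.09 in AAA, and 0.02 and -0.02 in WT. The arrays of a karyotype thus lay close together, with a median absolute difference between them of 0.17 in AAa, 0.17 in AAA and 0.19 in WT, against 0.15, 0.15 and 0.17 over all retained genes.

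**Figure D1:**
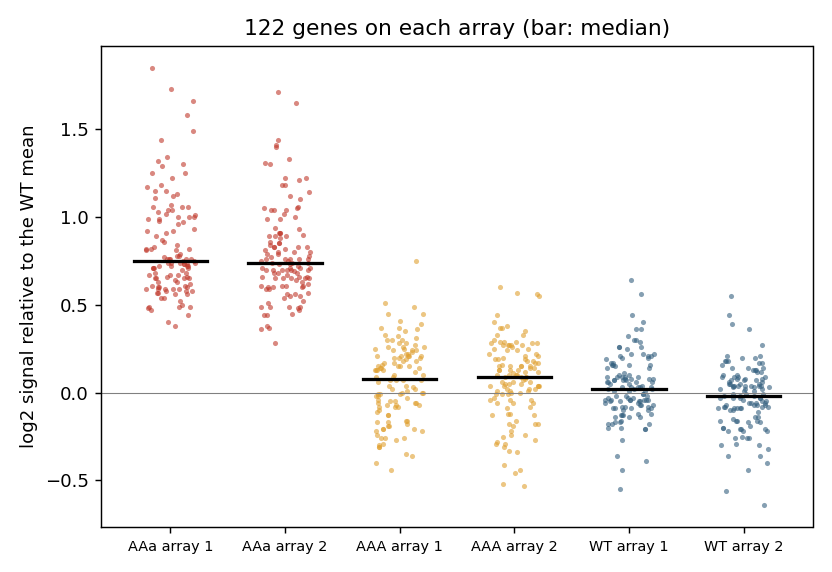
Log2 signal of the 122 genes on each of the 6 arrays, relative to the WT mean of the gene, with AAa, AAA and WT from left to right; each point is a gene and each bar the median of an array. The medians are 0.75 and 0.74 in AAa, 0.08 and 0.09 in AAA, and 0.02 and -0.02 in WT.

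The rule fixes that no AAa array overlapped a WT array. Both AAa arrays lay above both WT arrays in 26.7% of retained genes, and with the 1.5-fold limit in 4.97%. The gap left between the lower AAa array and the higher WT array had a median of 0.54 and ran from 0.01 to 1.39, with 73 genes above 0.5. In 2 genes it was below 0.1, at 0.01 for AT1G05340 and 0.02 for AT5G03130. In the moderated linear model (limma) fitted to all retained genes, 97 of the 122 had an adjusted p below 0.05 for AAa against WT, against 6.02% of retained genes called higher. This count restates the choice of the genes and nothing is read from it.

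In AAA the rule set only an upper and a lower bound, so the placement between them is a further description. AAA lay above WT in 81 of the genes and below it in 41, with a median difference of 0.11. The share above WT was thus 66.4%, against 47.8% of the 4093 retained genes whose AAA mean lay within 0.3 of WT. Both AAA arrays exceeded both WT arrays in 29 genes (23.8%, against 16.1% of those 4093 and 23.3% of all retained genes) and lay below both in 7. AAA and AAa were compared with the same WT arrays, which links the sign of these differences. In AAA against WT, 0 of the 122 genes passed the limma test, where the bound of 0.3 had already removed larger differences.

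Against AAA itself, the AAa means were higher by 0.36 to 1.72 (median 0.67). Both AAa arrays lay above both AAA arrays in 118 of the genes, a pattern found in 27.6% of retained genes. The 4 exceptions were AT4G08230, AT5G03130, AT5G48240 and AT5G54880, named after their values were seen. In this comparison 70 of the genes had an adjusted limma p below 0.05, against 5.76% of retained genes called higher, and the rule's bounds for WT again fix much of that count.

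**Figure D2:**
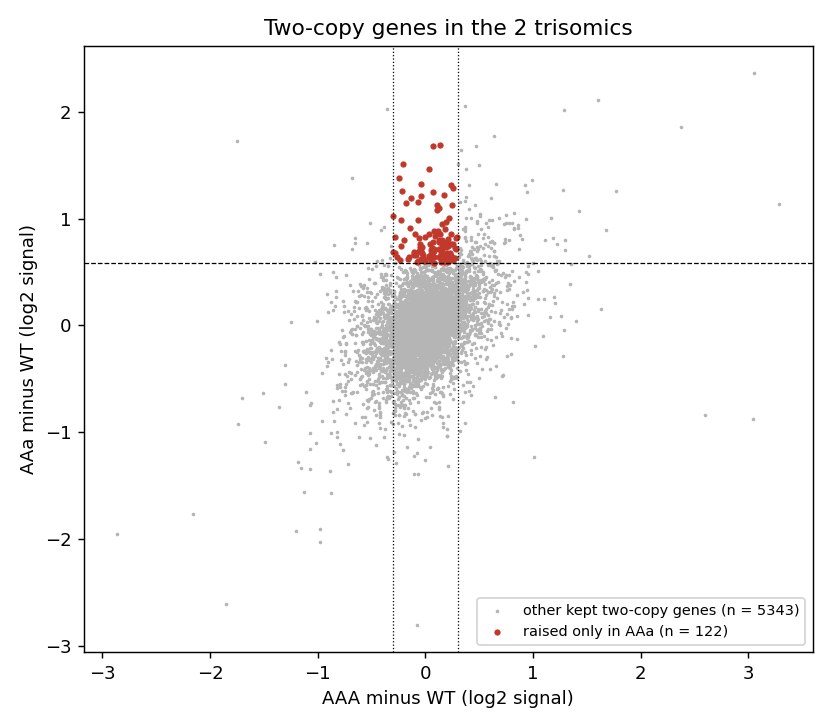
AAa minus WT (vertical axis) against AAA minus WT (horizontal axis), both as differences of mean log2 signal, for the 122 genes and for the other retained non-triplicated genes, without the 4 left out by name. The dashed line marks a 1.5-fold difference in AAa and the dotted lines -0.3 and 0.3 in AAA, and the 122 genes lie above the dashed line and between the dotted ones.

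Of the 268 non-triplicated genes that stood at least 1.5-fold above WT in AAa without overlap, leaving aside the genes excluded by name, AAA lay within 0.3 of WT in these 122, above 0.3 in 129 and below -0.3 in 17. By the 1.5-fold limit without overlap in each trisomic, 56 genes were raised in both. The mirror pattern, lowered only in AAa by the same limits, held 118 genes, and 59 genes were raised only in AAA.

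Of the genes, 17 carried a name in the reference annotation (13.9%, against 13.8% of retained genes), and they are taken up by what their products do. Signals are given as deposited, in the order of array 1 and array 2, and differences on the log2 scale after centring. Of these, 3 act in ubiquitin ligases, which mark proteins for degradation. PUB19, a U-box ligase known from the drought and abscisic acid response, had the largest difference of the whole set. Its signals were 319 and 294 in AAa, 82.8 and 125 in AAA, and 117 and 82.2 in WT, a difference of 1.69 (3.22-fold). Both AAa arrays lay far above the other 4, which overlapped each other. SKP2A, an F-box protein that selects cell cycle regulators for degradation, had 521 and 545 in AAa, 480.4 and 316 in AAA, and 360 and 353 in WT. RHF1A, a RING-H2 ligase known from gamete formation, had 593 and 558 in AAa, 421 and 402 in AAA, and 345 and 433 in WT. In both of these the differences from WT were small, at 0.63 for SKP2A and 0.62 for RHF1A, and 1 AAA array of SKP2A lay close to AAa.

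A pair of neighbouring genes of the subtilase family of serine proteases belonged to the set, SBT3.5 and SBT3.3, separated on Chr.1 by 1 protein-coding gene. SBT3.5, a secreted protease, had 739 and 809 in AAa, 354 and 315 in AAA, and 326 and 346 in WT (difference 1.25). SBT3.3, known as a positive regulator of immune priming, had 604 and 531 in AAa, 266 and 269 in AAA, and 245 and 257 in WT (difference 1.22). In both, the AAa arrays were at more than 1.5 times the highest array of the other karyotypes, and AAA and WT were nearly level. Probe sets of such closely related neighbours may share signal, which was not tested.

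GRX480, a CC-type glutaredoxin that links salicylic acid signalling to jasmonate-responsive genes through TGA factors, ranked just below the 3 largest differences. Its signals were 460 and 434 in AAa, 149 and 174 in AAA, and 193 and 144 in WT (1.47, 2.76-fold). The 4 AAA and WT arrays were intermingled below both AAa arrays.

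Among transcription factors, NGA2, a B3-domain NGATHA protein that shapes leaf margins and the style, had 248 and 229 in AAa, 119 and 155 in AAA, and 145 and 109 in WT (0.97). WRKY47, of the WRKY family of mostly stress-related regulators, had 276 and 295 in AAa, 153 and 169 in AAA, and 195 and 172 in WT (0.69). The AAA and WT arrays overlapped in both genes after centring, and both AAa arrays lay above all of them.

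Other enzymes were encoded by 7 of the named genes, with differences of 0.62 to 1.28. CCOAMT, annotated as a caffeoyl-CoA O-methyltransferase of phenylpropanoid metabolism, had 236 and 276 in AAa, 113 and 133 in AAA, and 111 and 106 in WT (1.28). Its AAA arrays stood slightly above both WT arrays. NDB2, an external NAD(P)H dehydrogenase of plant mitochondria that bypasses the proton-pumping complex, had 871 and 942 in AAa, 549 and 507 in AAA, and 495 and 555 in WT (0.84). ALDH7B4, an aldehyde dehydrogenase induced by osmotic stress, had 1587 and 1391 in AAa, 927 and 904 in AAA, and 808 and 1066 in WT (0.73). For NDB2 and ALDH7B4 the AAA arrays overlapped those of WT, while both AAa arrays were clear of them.

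CYP71B24, a cytochrome P450, had 539 and 414 in AAa, 225 and 277 in AAA, and 292 and 262 in WT (0.82). GT72B1, a glucosyltransferase that conjugates phenolic and foreign compounds, was the brightest of these enzymes, with 1856 and 1745 in AAa, 1316 and 1335 in AAA, and 1271 and 1126 in WT (0.64). Its AAA arrays both exceeded its WT arrays. GLC, known as GLAUCE, an acyltransferase of the BAHD family needed for endosperm development, had 178 and 119 in AAa, 91.3 and 93.8 in AAA, and 98.8 and 69.5 in WT (0.86). DLAH, a DAD1-like acylhydrolase that cleaves lipids, had 118 and 120.1 in AAa, 62.2 and 66.3 in AAA, and 69.8 and 92.0 in WT (0.62). DLAH passed the filter on low signals only through its AAa arrays. GLC was also the single gene of the 122 with a second probe set, which was dim on all arrays, at 39.8 and 45.9 in AAa, 63.1 and 32.4 in AAA, and 24.7 and 43.0 in WT.

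COR47, a dehydrin that accumulates in cold and drought, was the brightest of the named genes, with 2913 and 3395 in AAa, 2309.9 and 2461 in AAA, and 1942 and 2321 in WT. Its difference of 0.61 (1.53-fold) stood close to the limit, and AAA also stood 0.25 above WT. PSD, known as PAUSED, an exportin that carries transfer RNA out of the nucleus, had 230.0 and 184 in AAa, 157 and 148 in AAA, and 144 and 129 in WT (0.64), so that the karyotypes followed each other without overlap.

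The remaining 105 genes are known here only by their locus. Of the 20 largest differences, 15 belonged to such loci. AT1G65690 had 559 and 566 in AAa, 157 and 206 in AAA, and 283 and 116 in WT (1.68). AT1G02470 had 347 and 213 in AAa, 81.8 and 79.5 in AAA, and 81.8 and 118 in WT (1.51). AT4G00700 had 1063 and 950.3 in AAa, 296 and 345 in AAA, and 420 and 380.3 in WT (1.38). Of the 3, AT1G65690 had the WT arrays furthest apart, and in AT4G00700 both AAA arrays lay below both WT arrays. AT3G49340 had 254 and 242 in AAa, 87.0 and 101 in AAA, and 139 and 75.2 in WT (1.32). AT1G67920 had 288 and 193 in AAa, 118 and 101 in AAA, and 97.3 and 98.5 in WT (1.31). AT4G39670 had 536 and 635 in AAa, 198 and 212 in AAA, and 234 and 271 in WT (1.26). These loci illustrate the main modes of spread, since the WT arrays disagreed in AT3G49340, the AAa arrays in AT1G67920, and neither in AT4G39670.

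The other loci among the 20 had differences of 1.02 to 1.21. AT5G39520 had 242 and 234 in AAa, 108 and 87.6 in AAA, and 108 and 104 in WT (1.21). AT1G13340 had 709 and 608 in AAa, 335 and 193 in AAA, and 315 and 278 in WT (1.2). AT1G57630 had 1171 and 1004 in AAa, 447 and 460 in AAA, and 481 and 525 in WT (1.15). The WT arrays of AT5G39520 and AT1G57630 were close together, while the AAA arrays of AT1G13340 fell on both sides of WT. AT5G53110 had 196 and 184 in AAa, 69.9 and 77.8 in AAA, and 98.6 and 79.2 in WT (1.15). AT4G33040 had 262 and 288 in AAa, 138 and 135 in AAA, and 142 and 124 in WT (1.1). AT5G22540, whose AAA mean was close to the lower bound, had 248 and 241 in AAa, 89.0 and 102 in AAA, and 159 and 96.7 in WT (1.02). The AAa arrays of these loci stayed within a narrow band, while WT array 1 of AT5G22540 stood apart from its other WT array. The dimmest loci were AT5G62770 (1.13), AT3G48020 (1.13) and AT4G16745 (1.08), all with WT and AAA arrays between 50.7 and 109, against 132 to 166 in AAa. AT3G48020 passed the filter on low signals only through its AAa arrays.

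**Figure D3:**
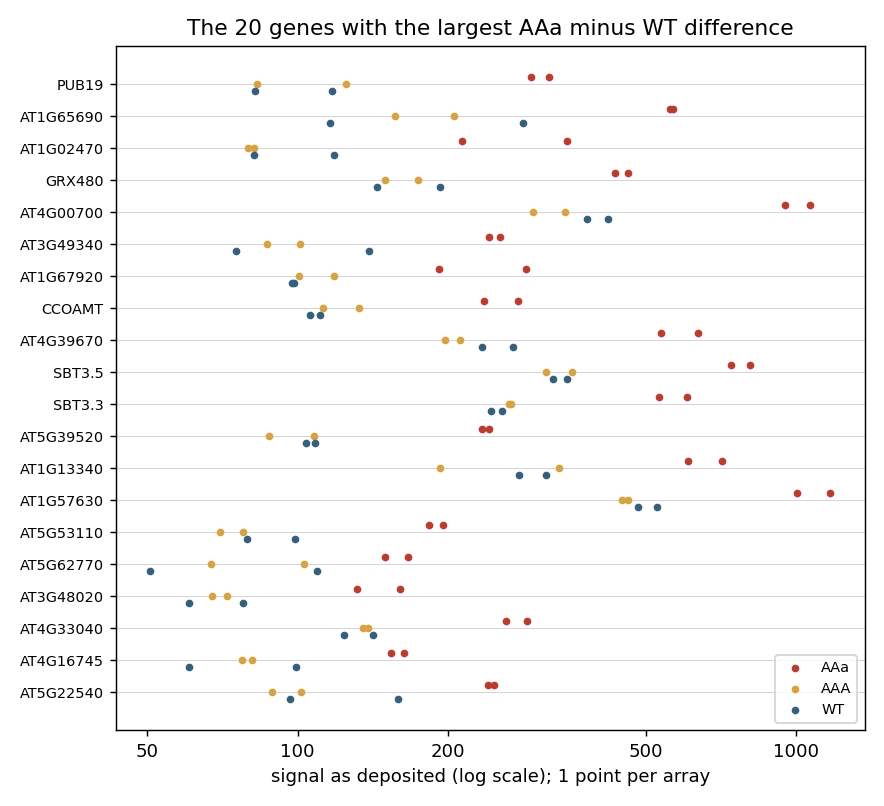
Deposited signal on a log axis for the 20 genes with the largest AAa minus WT difference, 1 point per array, with AAa, AAA and WT drawn from top to bottom within a gene. In each gene both AAa arrays lie to the right of all AAA and WT arrays, and WT arrays are widely spaced in AT1G65690, AT3G49340 and AT5G62770.

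Because each karyotype had 2 arrays, single arrays carried weight. Leaving out 1 array changed the AAa minus WT difference by more than 1.5 times in 22 of the 122 genes, and in 14 of them WT array 2 did so. WT array 1 did so in 6 genes, AAa array 1 in 6 and AAa array 2 in 3. AT1G65690 had a difference of 2.33 without WT array 1 and 1.04 without WT array 2, AT3G49340 had 1.77 without WT array 1 and 0.88 without WT array 2, and AT5G22540 had 1.38 without WT array 1 and 0.67 without WT array 2. AT5G62770 had 1.69 without WT array 1 and 0.58 without WT array 2, and AT1G05340 had 0.25 without WT array 1 and 1.36 without WT array 2. The rule keeps these differences above 0 whichever array is omitted. The lowest was 0.23, and for at least 1 omitted array the difference was below 1.5-fold in 65 of the genes.

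The rule was met by 15 genes under all 14 alternative ways of processing that were tried for the whole set. Among the named genes these were SBT3.5, SBT3.3, NDB2 and CYP71B24. The other 11 were AT1G57630, AT4G33040, AT5G51630, AT3G58570, AT1G63720, AT1G77810, AT1G22570, AT5G63990, AT1G76590, AT3G53680 and AT1G76940. PUB19 met it under 10 settings and GRX480 under 13.

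The limits cut through a continuous range of values. Just inside the 1.5-fold limit lay AT5G01850 (0.5857), AT5G03130 (0.5929) and AT3G62260 (0.5932), and just outside lay AT5G16040 (0.5838), AT3G28850 (0.5821) and AT5G06190 (0.5809). For AAA minus WT, AT1G63840 (-0.2995), AT5G22540 (-0.2979) and AT5G43150 (0.2933) were the nearest inside 0.3. AT5G52390 (0.3001), AT3G29010 (0.3004) and ATG8B (-0.3024) were the nearest outside. AT5G52390 stood 1.5132 above WT in AAa, more than all but 3 of the 122 genes, and missed the set by its AAA level alone.

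The profile of the set over the 6 arrays was most closely followed, among genes outside it, by AT3G46920 (Euclidean distance 0.37 on the log2 scale, each gene first set to its WT mean), AT1G29060 (0.38), AT5G05090 (0.41), AT5G61820 (0.42) and AT4G29530 (0.43). The median distance of the members themselves was 0.45. Of these 5 genes, AT5G61820 missed the set through AAA (0.308), and the others stood between 0.546 and 0.579 above WT in AAa. The members closest to the mean profile were AT1G22570 (0.19), NDB2 (0.22) and AT1G70180 (0.23).

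The 122 genes were spread over all the non-triplicated regions. Chr.1 held 56 of them, which was 45.9% of the set against 34.5% of retained genes. Chr.5 held 35 (28.7% against 31.3%), Chr.4 held 19 (15.6% against 19.1%) and Chr.3 beyond AT3G20040 held 12 (9.84% against 15.1%). The median AAa minus WT difference was similar throughout, at 0.73 on Chr.1, 0.83 on distal Chr.3, 0.69 on Chr.4 and 0.73 on Chr.5. The member nearest to the Chr.3 breakpoint lay 692 protein-coding genes beyond AT3G20040, with 153 retained genes between. The set held 1.45% of retained distal Chr.3 genes. At that share few members would lie among 153 genes, so nothing is read from their absence there.

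Neighbouring members formed 3 pairs within 3 genes of each other, SBT3.5 with SBT3.3, AT5G47050 with AT5G47060, and AT5G59670 with AT5G59680. The number of such pairs in other sets of this size was not tested. AT5G47050 had 317 and 223 in AAa, 215 and 167 in AAA, and 176 and 157 in WT (0.72). AT5G47060 had 225 and 244 in AAa, 172 and 165 in AAA, and 148 and 156 in WT (0.67). AT5G59670 had 1356 and 1090 in AAa, 881 and 739 in AAA, and 807 and 745 in WT (0.7), and AT5G59680 had 393 and 300 in AAa, 254 and 248 in AAA, and 260 and 198 in WT (0.65). Both genes of each pair thus had similar differences, while the level of AT5G59680 cannot be set against that of its neighbour on these arrays.

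Dim probe sets were frequent in the set. The median of the geometric mean signal over the 6 arrays was 199 for the 122 genes, from 77.8 to 2516, against 364 for all retained genes, and 85 of the 122 lay in the dimmer part of the retained genes below their median. Among the dimmest 1823 retained genes 69 belonged to the set (3.78%), against 33 of the middle 1823 (1.81%) and 20 of the brightest 1823 (1.1%). For genes lowered only in AAa the same shares were 2.25%, 2.03% and 2.19%. The median difference in the set was nearly the same in each range of brightness, at 0.75, 0.69 and 0.71. On their WT and AAA arrays alone 113 of the genes would have passed the filter on low signals, and 9 passed only through AAa. The part of low signal in the choice of these genes was not tested. Median gene length was 2050 bases in the set and 2400 bases over retained genes.

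**Figure D4:**
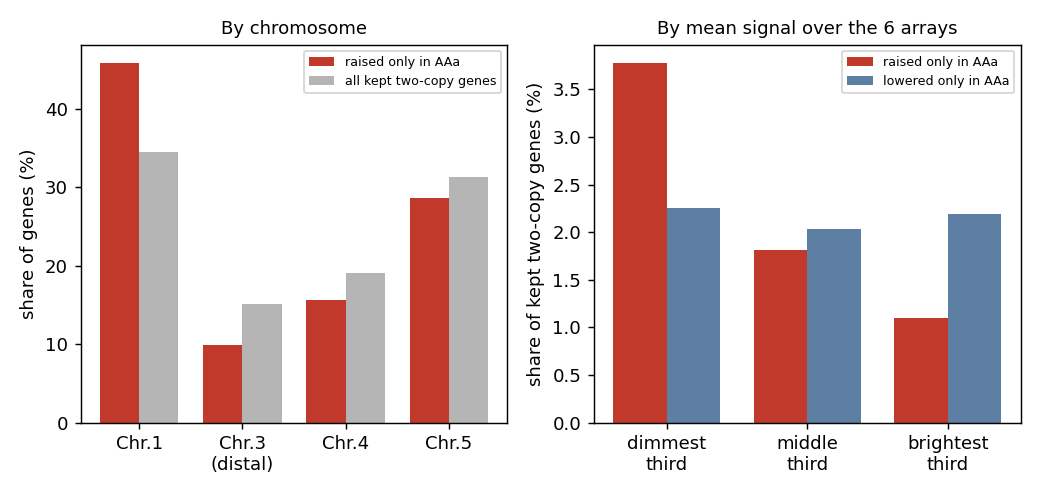
Left, share of the 122 genes and of all retained non-triplicated genes on each chromosome, with Chr.3 counted beyond AT3G20040. Right, percentage of retained genes that were raised only in AAa or lowered only in AAa in 3 groups of 1823 genes by mean signal, where the first falls from 3.78% to 1.1% with brightness and the second stays between 2.03% and 2.25%.

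Relatives with the same family symbol were looked up after the members were known and are given without a test. Relatives without such a symbol, inside or outside the set, would be missed by this search. In 8 families 31 other retained non-triplicated relatives could be read, with AAa minus WT differences of -1.24 to 0.7. Beside SBT3.5 and SBT3.3, SBT3.12 had 154 and 107 in AAa, 79.8 and 89.4 in AAA, and 85.7 and 105 in WT (0.49), and the other 3 relatives (SBTI1.1, SBT1.3 and ARA12) had differences of -0.27 to 0.04. Beside PUB19, the differences were 0.58 for PUB49, 0.33 for PUB43 and -0.31 for PUB26. The WT arrays of PUB49 were far apart, at 121 and 292, against 260 and 284 in AAa, and its AAA mean stood 0.63 above WT. GRXC1 and GRXC2, glutaredoxins of another class than GRX480, had differences of -0.02 and -0.27, and NDB1, the relative of NDB2, had -0.11.

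CYP71B24 lies in a cluster of CYP71B genes on distal Chr.3, whose genes had differing values. CYP71B22 had 106 and 68.3 in AAa, 356 and 437 in AAA, and 202 and 213 in WT, that is -1.24 in AAa and 1.01 in AAA. CYP71B23 had 1163 and 1056 in AAa, 765 and 741 in AAA, and 959 and 786 in WT (0.4 in AAa, -0.12 in AAA). CYP71B26 had 0.46 in AAa and -0.01 in AAA, and CYP71B34, CYP71B35 and CYP71B36 had -0.46, -0.06 and -0.59 in AAa. Signals of neighbouring P450 genes thus stood on opposite sides of WT in AAa. Among aldehyde dehydrogenases, ALDH7B4 had the highest difference in AAa, with ALDH2C4 at 0.45 and ALDH3F1 at -0.63, and among WRKY genes WRKY47 (0.69) stood above WRKY53 (0.41), WRKY6 (0.4), WRKY22 (0.31) and WRKY20 (0.02). In AAA, where the rule held WRKY47 (-0.11) near WT, WRKY20 had -0.12, and WRKY53, WRKY6 and WRKY22 had 0.54 to 0.77. In the UGT72 family, UGT72E1, with 0.7 in AAa and 1.3 in AAA, stood above GT72B1 (0.64 in AAa), and UGT72E2 had 0.39 and UGT72B3 -0.41 in AAa.

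**Figure D5:**
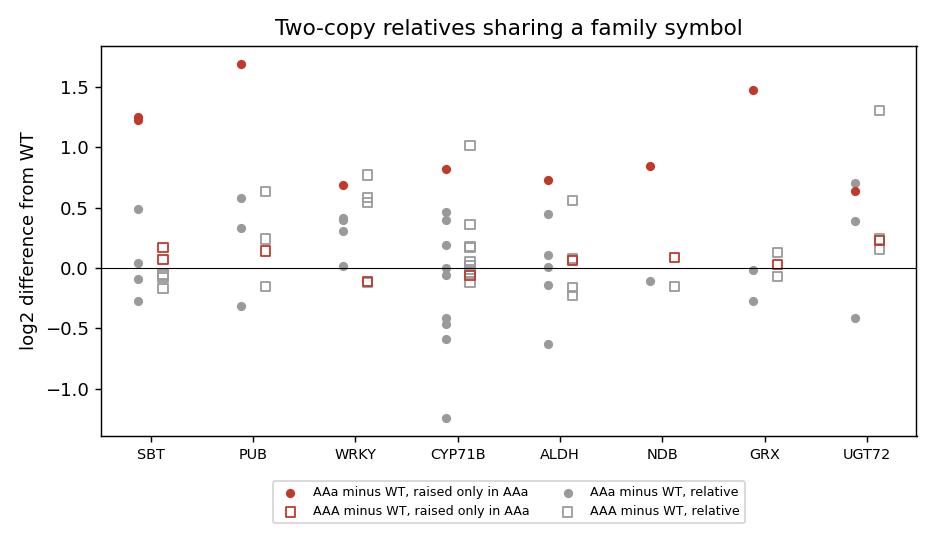
Difference from WT in log2 signal for non-triplicated genes of 8 families, with AAa minus WT as filled circles and AAA minus WT as open squares; the 122-gene set is in red and other relatives in grey. In AAa the SBT, PUB and GRX members of the set stand at 1.22 to 1.69, and CYP71B22 is the lowest relative at -1.24.

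To place the set beside pathways of leaf stress and turnover, 14 lists with 349 genes were used, of which 47 genes were retained and non-triplicated. Of these, 3 belonged to the set, PUB19 and COR47 from the abscisic acid and drought list and GRX480 from the salicylic acid and defence list. The retained members of these lists were too few to describe either pathway, with 3 and 2 genes. Of 41 further list genes outside the set, 8 were higher and 3 lower in AAa than in WT by limma with Benjamini-Hochberg adjustment over all retained non-triplicated genes, where 6.02% of those were called higher and 6.86% lower. In AAA against WT 5 list genes were higher and 3 lower (2.76% and 2.49% of retained genes), and in AAa against AAA again 5 were higher and 3 lower (5.76% and 6.18%). The lists were chosen with earlier results of these data known, which may have raised these counts, so no excess over retained genes is read from them.

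On the autophagy list 2 of 9 genes were higher in AAa and 0 lower, with a list median of -0.03 against 0.00 over all retained genes. ATG8B, a ubiquitin-like protein of the autophagosome membrane that missed the set only through its AAA level, had 289 and 259 in AAa, 126 and 142 in AAA, and 138 and 222 in WT. Its difference was 0.69 ± 0.22 (SE; limma, adjusted p = 0.0445), and the call was lost without either AAa array, either AAA array or WT array 1 (adjusted p 0.0641 to 0.348; difference 0.35 without WT array 1). AT3G61960 had 794 and 941 in AAa, 694 and 695 in AAA, and 648 and 619.8 in WT (0.49 ± 0.13, limma adjusted p = 0.0222), a call lost without AAa array 2 or either WT array (adjusted p 0.0617 to 0.206). APG8A, another ATG8 protein, had 966 and 790.4 in AAa, 433 and 421 in AAA, and 601 and 789 in WT. Its AAa mean was 0.39 above WT (limma adjusted p = 0.0987, and 0.0495 without WT array 2). In AAA it fell by 0.61 (limma adjusted p = 0.0225), a call lost without either AAA array or WT array 2 (adjusted p 0.132 to 0.231).

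All 8 retained proteasome genes had positive differences in AAa, from 0.06 to 0.38 (median 0.24, against 0.00 over all retained genes), and 0 passed the limma test. The lowest adjusted limma p was 0.0518, for AT5G23540. In AAA the median of the same genes was 0.02.

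On the senescence list 2 of 5 genes were higher in AAa and 3 of 5 in AAA. BETA-VPE, a vacuolar processing protease, had 805 and 745 in AAa, 333 and 357 in AAA, and 225 and 243 in WT, so that it rose in both trisomics and more in AAa (1.77 ± 0.14 in AAa, limma adjusted p = 3.56e-07; 0.64 ± 0.14 in AAA, adjusted p = 0.0131). The call in AAA was lost without either AAA array or WT array 1 (limma adjusted p 0.066 to 0.135). WRKY53, a regulator of senescence, was higher in AAa by 0.41 ± 0.12 (limma adjusted p = 0.0339), a call lost without any single array except AAA array 2 (adjusted p 0.0504 to 0.175). In AAA it stood 0.54 above WT (limma adjusted p = 0.0146). WRKY6 stood 0.77 above WT in AAA (limma adjusted p = 0.0145) and 0.4 above WT in AAa (adjusted p = 0.152). On the jasmonate list JRG21, a jasmonate-inactivating oxygenase, had 262 and 235 in AAa, 136 and 158 in AAA, and 51.6 and 77.7 in WT (2.02 ± 0.24 in AAa, limma adjusted p = 2.25e-05). JRG21 was also higher in AAA, by 1.29 (limma adjusted p = 0.00307).

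Single genes were called on further lists. QQS, which regulates starch content, was at 983 and 715 in AAa, 1393 and 1254 in AAA, and 180.2 and 158 in WT (2.36 ± 0.15 in AAa, limma adjusted p = 1.98e-08). QQS was also higher in AAA, by 3.05 (limma adjusted p = 2.69e-10). DFR, of anthocyanin synthesis, was higher by 0.96 ± 0.27 (adjusted p = 0.0269 by limma), lost without either AAa array or WT array 2 (0.0941 to 0.181). GI, the clock gene GIGANTEA, was higher by 0.46 ± 0.14 (limma adjusted p = 0.0345), lost without any AAa or WT array (0.0616 to 0.184). In AAA the differences from WT were 0.78 for DFR (limma adjusted p = 0.119) and 0.07 for GI (adjusted p = 0.829). GSTU20, a glutathione transferase, fell in AAa, at 2297 and 1852 in AAa, 5533 and 4577 in AAA, and 5992 and 5237 in WT (-1.39 ± 0.13, limma adjusted p = 1.77e-06). MCCA, of leucine breakdown, fell in AAa by 0.53 (limma adjusted p = 0.0245), and AKINBETA1, a subunit of the SnRK1 energy-sensing kinase, fell by 0.43 (adjusted p = 0.0274). The calls of MCCA and AKINBETA1 in AAa were lost without any AAa or WT array (adjusted p 0.0733 to 0.119 for MCCA and 0.052 to 0.198 for AKINBETA1). In AAA the differences from WT were -0.4 for MCCA (limma adjusted p = 0.132) and -0.54 for AKINBETA1 (adjusted p = 0.0143).

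List genes in regions with 3 copies in at least 1 of the trisomics ran from -0.46 (AT2G37840) to 1.16 (PUB23) in AAa minus WT. Both of these genes lie on distal Chr.2, with 2 copies in AAa. Those with 3 copies in AAa ran from 0.44 (ATG8H) to 0.78 (APG8H). In AAA minus WT the list genes of these regions ran from -0.7 (ATG8H) to 2.49 (PUB23). ATG8H lies on the Chr.3 segment, with 2 copies in AAA. Those with 3 copies in AAA ran from 0.0 (ATG8E) to 2.49 (PUB23). PUB23, a U-box ligase on distal Chr.2, was at 102 and 113 in AAa, 255 and 270.2 in AAA, and 80.5 and 30.5 in WT. Its means stood 1.16 above WT in AAa, where it has 2 copies, and 2.49 above WT in AAA, where it has 3. The cold genes COR15A and COR15B of distal Chr.2, which were on none of the lists, lay 1.65 and 1.05 above WT in AAa. In AAA they lay 1.27 and 1.74 above WT.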

How the data were processed

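RNA of rosette leaves was measured on 6 ATH1 arrays, 2 each for AAa, AAA and WT. The deposited values are intensity units: per the labels, GCOS (no version stated in the sources used here) made linear signals of 22810 probe sets for the authors, and the values that the study analysed itself (GC-RMA, vsn) were not used here. Array medians were 155.2 to 170.8, and 246 to 489 signals per array lay below 1; the number of arrays limits the precision. Probe sets were named through a platform annotation table and a RefSeq gene table (13513 with 1 gene, 503 with several and 8794 with none; 77 of the first were not matched). The study's breakpoints set the triplicated regions. Filter, centring and rule are as given with the results. Tests used limma 3.58.1 in R 4.3.3 (lmFit, eBayes with intensity trend, 3 groups, 3 residual and 14.8 prior degrees of freedom), two-sided, adjusted after Benjamini and Hochberg over 5469 genes, and were tested on simulated data.

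Members and gene lists were chosen with earlier results of these data known. Named were the 20 largest differences, list members, genes nearest to the limits, neighbouring members, up to 3 genes a list by p, and the 5 closest profiles; the remaining named members, the relatives and single genes given as exceptions were chosen after their values were seen. Functions are background knowledge and were given only to genes that the annotation names. Alternatives covered the floor, scaling, filter, probe set choice, variance model, replicate block and each array left out.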

Additional observations from a re-analysis of the deposited data

Results flagged for a closer look

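For 8 list genes outside the set the effect in AAa differed from that in AAA by limma on AAa against AAA, adjusted over all retained non-triplicated genes. ATG8B and APG8A were both higher in AAa than in AAA by 1.0 (adjusted p = 0.00562 and 0.000237). BETA-VPE was higher in AAa by 1.13, UGT78D2, a flavonoid glucosyltransferase, by 0.63, and PPDK, pyruvate phosphate dikinase, by 0.49 (limma adjusted p = 4.37e-05, 0.0119 and 0.00873). GSTU20 was lower in AAa than in AAA (-1.32), as were QQS (-0.69) and UGT78D1, another flavonoid glycosyltransferase (-0.68), with limma adjusted p of 2.62e-06, 0.00601 and 0.0067. Against WT, UGT78D2 had differences of 0.05 in AAa and -0.58 in AAA. UGT78D1 had -0.21 in AAa and 0.47 in AAA, and PPDK had 0.29 in AAa and -0.2 in AAA. Members of the set are left out here, since their choice fixes much of the difference. With 1 array left out the calls of APG8A, BETA-VPE and GSTU20 were kept. Those of the other genes were lost without AAa array 1 or AAA array 1 for ATG8B (adjusted p 0.0692 and 0.0779), without AAa array 1 or either AAA array for PPDK (0.0542 to 0.0892), without either AAa array or AAA array 2 for UGT78D2 (0.0592 to 0.166), without AAa array 2 or AAA array 2 for UGT78D1 (0.0714 and 0.111), and without AAa array 2 or AAA array 1 for QQS (0.122 and 0.0975).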

How the results depend on the processing

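With 2 arrays a karyotype, 25 of the 122 genes did not reach an adjusted limma p below 0.05 for AAa against WT. The number meeting the rule was 122 with signals floored at 16 (all 122 shared), 117 without centring (95 shared), 87 when centred on all retained genes (69 shared) or after quantile normalization (68 shared), 307 with no filter on dim probe sets (80 shared), 75 with the filter at the 50th percentile, and 122 with the mean of a gene's probe sets (118 shared). Leaving out 1 array gave 120 to 169 genes, with 54 of the 122 lost without WT array 1 and 44 without WT array 2.

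Same-numbered arrays did not deviate together (correlations -0.0535, 0.0454 and -0.0464), so the numbers do not pair the arrays. With the replicate block, 33 genes met the rule in both pairs; the block gave 334 higher and 366 lower in AAa against WT, 152 and 145 in AAA against WT, 307 and 331 in AAa against AAA, and 8 higher and 3 lower list genes, and changed no call of a named list gene.

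Of genes called in AAa against WT 46.7% were higher, against 34.8% without centring, 25.5% centred on all retained genes and 29.1% after quantile normalization; in AAA these shares were 52.6%, 30.8%, 30.2% and 31.0%. Scaling moved the median of all retained genes by up to -0.09 and that of the set to 0.63. Counts that moved were, without centring, 252 lower in AAA and 5 list genes higher. Centred on all retained genes they were 212 higher and 619 lower in AAa, 247 lower in AAA and 4 list genes higher. Quantile normalization gave 231 lower in AAA and 4 list genes higher. No filter gave 113 higher and 235 lower in AAa, 45 and 49 in AAA, 119 and 190 in AAa against AAA, and 3 list genes higher. No intensity trend gave 206 and 192 in AAa, 75 and 76 in AAA, 181 lower in AAa against AAA, and 4 list genes higher. With 1 array left out, AAa against WT gave 136 to 274 higher and 154 to 317 lower, AAA against WT 48 to 130 and 51 to 115, AAa against AAA 140 to 332 and 127 to 356, and the lists 3 to 7 higher and 1 to 3 lower. The cause of these moves was not tested, apart from the smaller number of arrays. Of 783 recomputed values of single genes, 654 stayed on their side of the threshold or within the spread of their arrays, 53 moved, 75 lost and 1 gained the call, and 0 changed sign.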
